A study of Homo sapiens with 4 samples.

Results

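Homologous recombination repairs broken chromosomes by copying from the sister chromatid, and the Fanconi anemia pathway uses it to clear crosslinks that hold the DNA strands together. Broken ends are first resected, BRCA1, PALB2 and BRCA2 then load a strand-exchange recombinase onto the exposed strand, and helicases and nucleases take the joined molecules apart. Both pathways act mainly in S and G2 phase, and many of their genes are known targets of E2F factors in cycling cells. The group described here holds 43 genes of these pathways, chosen by function. They were found by matching accessions to gene symbols, and all 43 had a value in the authors' deposited table, which covers 19468 named genes.

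The study examined MDA-LM2 cells, a lung-metastatic derivative of human MDA-MB-231 breast cancer cells, after depletion of TARBP2, which binds RNA duplexes and helps Dicer to process small RNAs. Cells received 1 of 2 independent small interfering RNAs (siRNAs), siTARBP2-1 or siTARBP2-2, or siControl, with Lipofectamine, and total RNA was taken 48 hours later for Illumina BeadChips. The control cells are called siControl in the sample labels and mock-transfected in the design text. Each TARBP2 siRNA gave 1 array and the control gave 2, so the 2 replicates of the knockdown differ in siRNA. Whether the 2 control arrays are of separate cultures is not stated, so their spread may be technical. All arrays are of 1 cell line, and its defining markers could not be checked by level, because the probe tables used here name no genes.

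The values of named genes are therefore those of the authors' deposited table, which gives 1 log fold change for each accession (record), as knockdown over control, with no value per array and no replicate error. Its log base is unstated, and the values are read as log2 here. A gene was given the mean over its records: 33 members had 1 record, 8 had 2 and 2 had 3. The authors put records above 0.2 in a class of their own, and the same size below 0 is used for the other direction. TARBP2 itself stood at -0.78 in the authors' deposited table, from records of -0.98 and -0.58. The mean is 0.582 of the control level, or 0.458 if the values are natural logarithms. Differences of 0.2 also occurred between the control arrays. In the authors' normalized intensities, 25.5% of all 47321 probes differed by more than 0.2 on the log2 scale between the 2 control arrays, and 0.465% by more than 0.6. Such a difference of single arrays is noisier than a difference of means of 2 arrays. The siRNA arrays differed in their spread around the mean control. On the siTARBP2-1 array 14.1% of all probes lay beyond 0.6 (SD over probes 0.463), and on the siTARBP2-2 array 1.9% did (SD 0.23). With 1 array per siRNA, a difference between the siRNAs cannot be told apart from one between the arrays. The weight of each siRNA in the authors' deposited table is not known, so its values may rest largely on 1 of the 2 arrays. No probe passed the comparison of 2 knockdown with 2 control arrays among the 21075 tested (limma, 0% called, smallest adjusted p = 0.805). Of those tested, 815 had an unadjusted p under 0.05, a smaller share than the 0.05 that arises by definition when nothing changes. Limma without an intensity trend and with the robust option also called 0 probes, with 818 and 755 at an unadjusted p under 0.05. Without siTARBP2-1 the count was 4479 and without siTARBP2-2 it was 12035, with the lone array assumed to vary like the controls. The members' probes within these counts are not known.

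**Figure D1:**
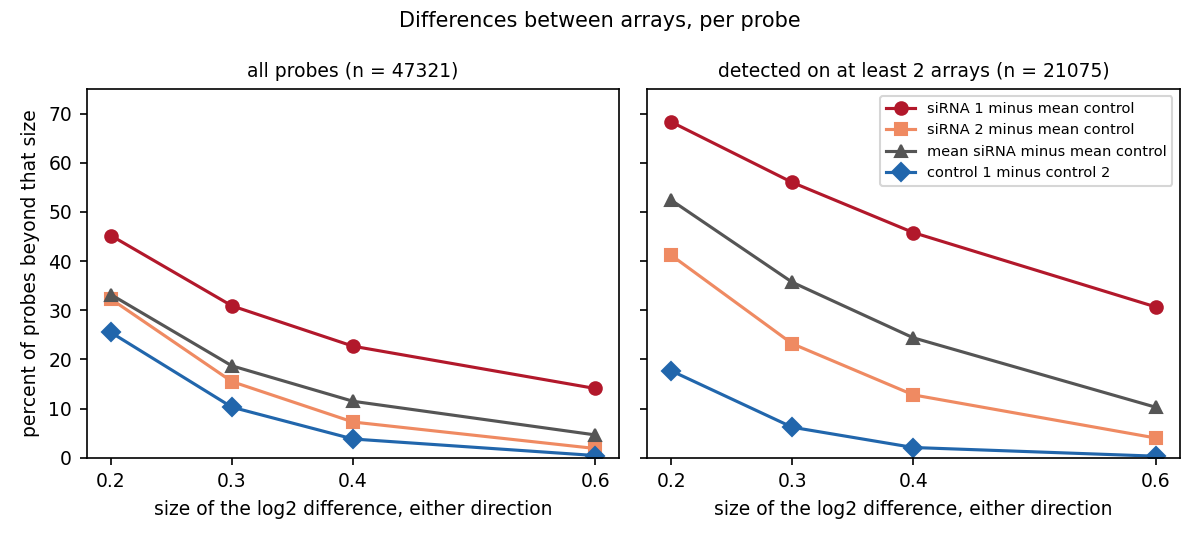
Percent of probes whose log2 difference exceeds a given size in either direction, in the authors' normalized intensities, for all 47321 probes (left) and for the 21075 detected on at least 2 arrays (right). At 0.2 the control pair reaches 25.5% on the left and 17.7% on the right, below the lines of both siRNAs in each panel.

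The group did not move as one in the authors' deposited table. Of its 43 members, 10 (23.3%) stood below -0.2, where 12.1% of all named genes did, and 5 (11.6%) stood above 0.2, where 13.1% of all named genes did. The other 28 lay from -0.17 to 0.18 in the authors' deposited table, 19 of the 43 within 0.1 of 0. The median of the members was -0.03, against 0.00 for all named genes of the authors' deposited table. Their middle range ran from -0.17 at the lower quartile to 0.06 at the upper, and that of all named genes of the authors' deposited table from -0.07 to 0.08. Which of these genes the arrays detected is not known, so the shares cannot be read as an excess. Among probes detected on at least 2 arrays, 52.4% differed by more than 0.2 between the means of knockdown and control, against 33.2% of all probes. Of the members, 15 (34.9%) lay beyond 0.2 in either direction, against 25.2% of all named genes of the authors' deposited table, and 7 (16.3%) lay beyond 0.4, against 10.4%. With a bound of 0.1, 16 members stood below it (20.2% of all named genes) and 8 above (22.3%). With a bound of 0.3, 7 stood below (7.91% of all named genes) and 2 above (8.32%).

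The lowest members of the authors' deposited table were BRCA1 at -0.61, RMI1 at -0.58, RAD51AP1 at -0.43, TOPBP1 at -0.41 and FANCI at -0.40. The highest in the authors' deposited table were BARD1 at 0.44, BLM at 0.42, ATRIP at 0.27, RAD54L at 0.25 and RMI2 at 0.22. These extremes include partners of single complexes. BRCA1 and BARD1 form a ubiquitin ligase that promotes recombination, and RMI1, RMI2 and BLM belong to the complex that dissolves crossed DNA strands.

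**Figure D2:**
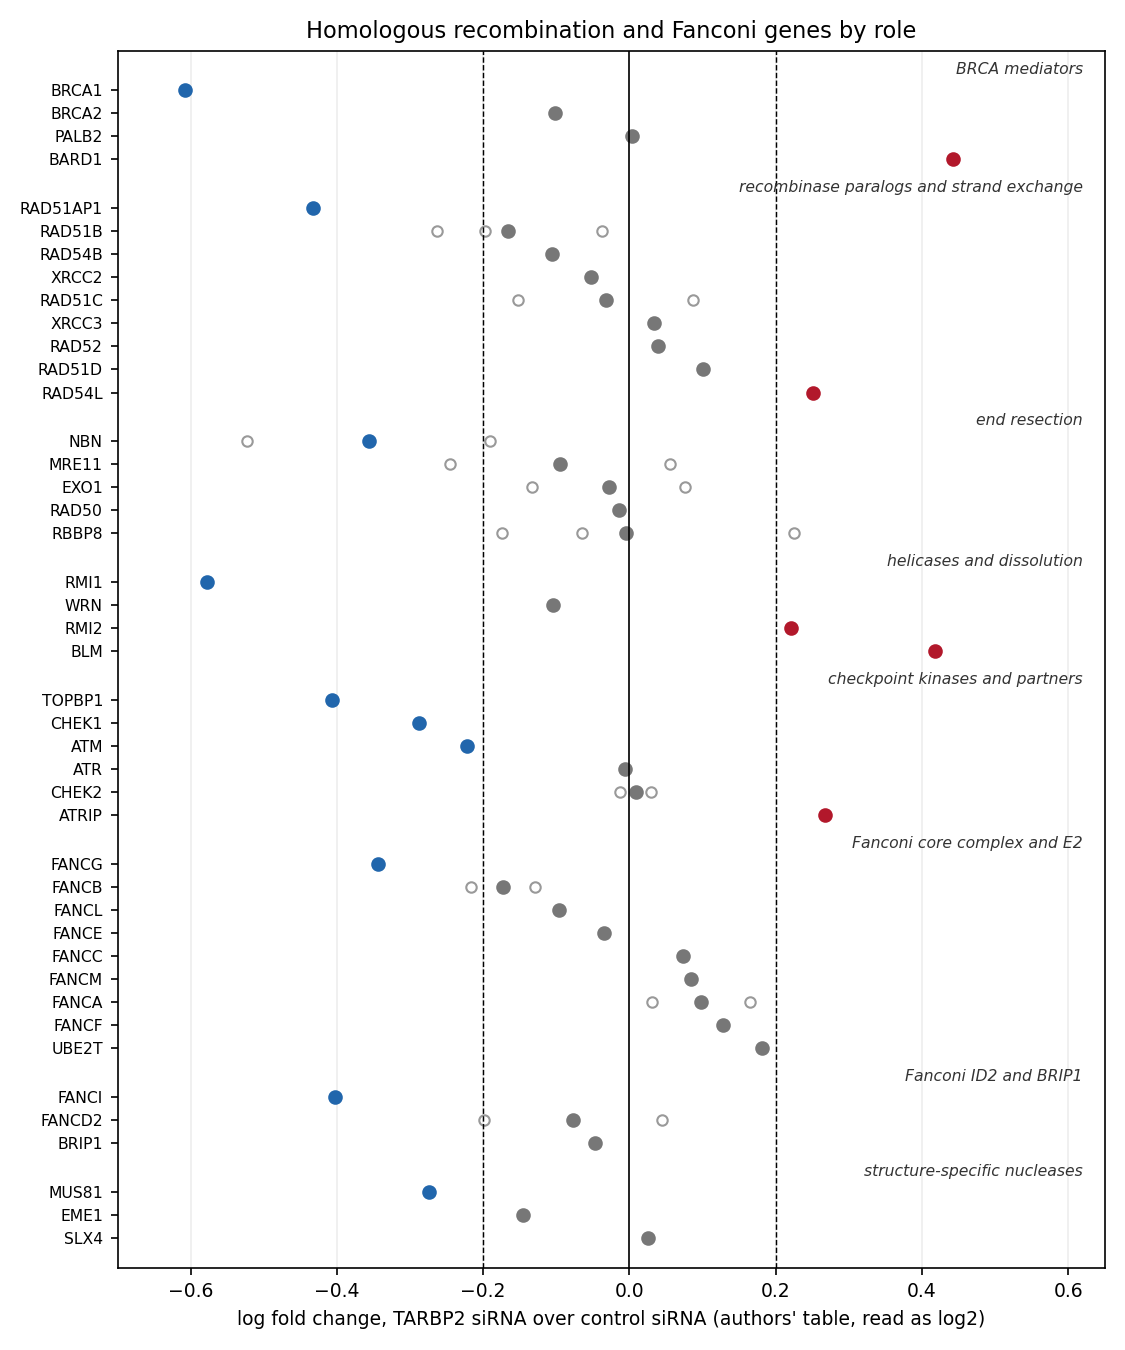
Log fold change (knockdown over control) of the 43 members in the authors' deposited table, grouped by role and taken as log2. Filled points are gene means, open points the records of genes with several, and dashed lines mark -0.2 and 0.2: 10 genes lie left of the lines and 5 right, and most roles hold genes on both sides of 0.

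Promoters are shown for members from both ends of this range, because E2F factors are known regulators of these genes and the members did not stand on one side of 0. The sequences are RefSeq's for GRCh38.p14, cut to the 250 bases before a transcript start. BRCA1 and RMI1 are the lowest members, and BLM and RAD54L the highest, with a window that holds an E2F match before the start. The first such window of each is printed. BRCA1 and RMI1 have 2 windows each, and the window not printed holds no E2F match. RAD54L also has 2 windows, and the one not printed holds a match from base -124 to -118. Capitals mark E2F matches on either strand.
BRCA1: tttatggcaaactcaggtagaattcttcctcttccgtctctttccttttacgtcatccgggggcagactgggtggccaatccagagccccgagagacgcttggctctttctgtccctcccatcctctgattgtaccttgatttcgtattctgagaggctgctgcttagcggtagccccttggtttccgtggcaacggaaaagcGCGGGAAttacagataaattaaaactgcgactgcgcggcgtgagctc
RMI1: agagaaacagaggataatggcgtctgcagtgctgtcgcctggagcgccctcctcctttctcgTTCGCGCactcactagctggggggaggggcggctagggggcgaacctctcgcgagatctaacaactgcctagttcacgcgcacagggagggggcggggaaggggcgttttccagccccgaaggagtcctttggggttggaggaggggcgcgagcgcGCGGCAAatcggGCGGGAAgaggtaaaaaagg
BLM: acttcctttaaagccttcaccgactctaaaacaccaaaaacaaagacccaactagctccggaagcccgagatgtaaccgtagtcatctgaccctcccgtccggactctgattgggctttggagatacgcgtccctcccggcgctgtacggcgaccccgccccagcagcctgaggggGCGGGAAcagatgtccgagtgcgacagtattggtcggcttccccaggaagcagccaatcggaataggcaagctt
RAD54L: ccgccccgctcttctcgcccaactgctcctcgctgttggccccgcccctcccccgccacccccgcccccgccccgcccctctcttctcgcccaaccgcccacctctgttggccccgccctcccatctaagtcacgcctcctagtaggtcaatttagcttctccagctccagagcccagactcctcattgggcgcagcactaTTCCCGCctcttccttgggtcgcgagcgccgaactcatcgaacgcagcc

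The BRCA1 stretch lies at chr17:43125365-43125614 on the minus strand. That of RMI1 lies at chr9:83980555-83980804, that of BLM at chr15:90717096-90717345 and that of RAD54L at chr1:46247438-46247687, all on the plus strand. Counted from the start in the orientation of each gene, the match of BRCA1 runs from base -47 to -41 and that of BLM from -74 to -68. RMI1 has 3 matches in this stretch, and BLM has others after the start that are not printed.

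A larger share of members than of all measured genes held an E2F match, and members with a match stood on both sides of 0. The first form searched was TTCCCGC, the next was TTCGCGC, a further form was TTGCCGC and the last was TTGGCGC, on both strands, in windows of 250 bases before to 50 after each start. Windows were found for 38 of the 43 members, and FANCI, NBN, RAD54B, RMI2 and WRN had no entry. Of these 38 members, 21 (55.3%) held an E2F match in at least 1 window, against 21% of the 14593 measured genes with a window and 13% of all 35116 windows. A gene with several windows has more chances of a match, and 13 members have several. Of the 31 matches, 25 lay from 100 bases before the start to 50 after it. Matches on opposite strands of TOPBP1 overlap each other. They were counted per window, so a site that lies in overlapping windows of a gene can count more than once. Of the 21 members with a match, 5 stood below -0.2 and 3 above 0.2 by the authors' deposited table. Of the 17 without one, 3 stood below and 1 above by the authors' deposited table. Over all measured genes of the authors' deposited table, 16.8% of those with a match and 12.3% of those without stood below -0.2, and 16.2% and 13.5% above 0.2.

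For motifs of other cell cycle factors the shares of members and of measured genes were nearer to each other. The NF-Y letters CCAAT, which on the opposite strand can overlap TTGGCGC, were in the windows of 18 of 38 members (47.4%) and of 42.6% of measured genes, or 34.6% of all windows. Of the 18 members with these letters 6 stood below -0.2 and 3 above 0.2 by the authors' deposited table, and of the 20 without them 2 stood below and 1 above. Over all measured genes of the authors' deposited table, 13.4% of those with the letters and 13.1% of those without stood below -0.2, and 14.3% and 13.9% above 0.2. The CHR element of late cell cycle genes, searched as TTTGAA and also in its variant form TTCGAA, was in those of 4 members (10.5%) and of 17.7% of measured genes, or 16.4% of all windows. By the authors' deposited table, 1 of these 4 members stood below -0.2 and none above 0.2, and of the 34 without a match 7 stood below and 4 above. Over all measured genes there, 13.4% of those with a CHR match and 13.2% of those without stood below -0.2, and 9.36% and 15.1% above 0.2. A match describes letters in a window and is no measure of binding.

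**Figure D3:**
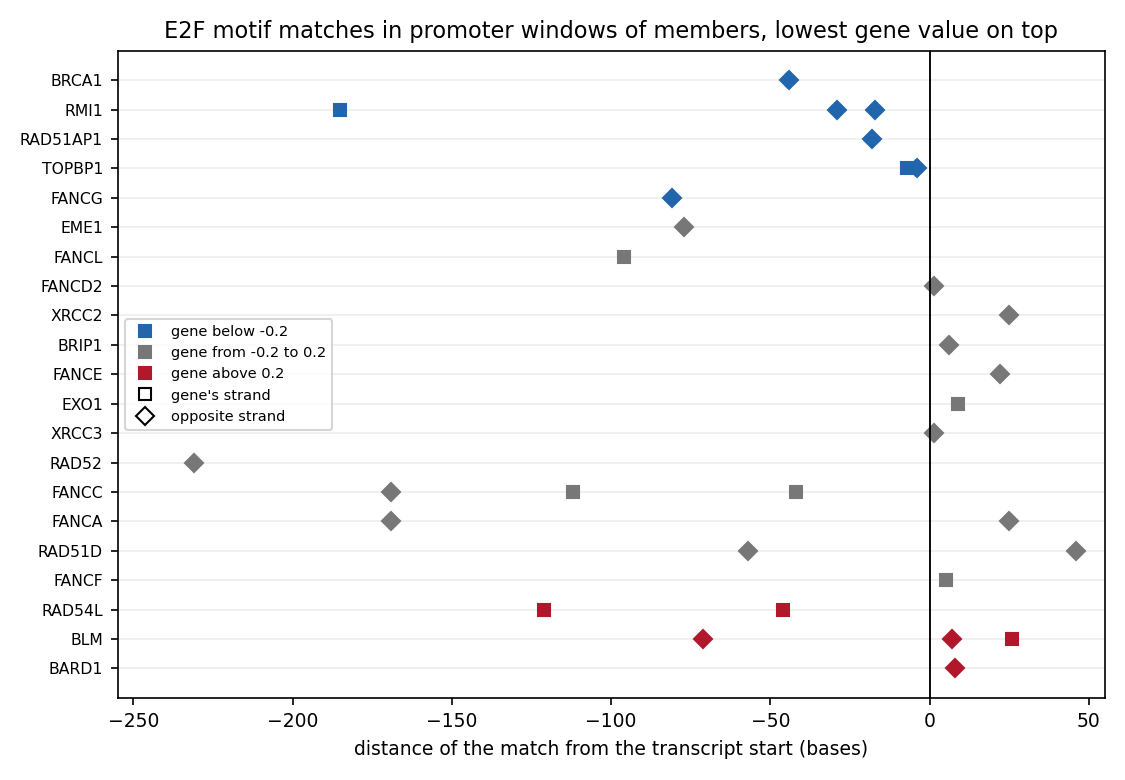
Distance in bases of each E2F match from the transcript start for the 21 members with a match, ordered by gene value in the authors' deposited table with the lowest on top. Squares are matches on the gene's strand and diamonds on the opposite strand, and genes below -0.2 (5), between (13) and above 0.2 (3) each include matches within 100 bases of the start.

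Among the mediators, the partners of the BRCA1 ligase stood on opposite sides. BRCA1 was the lowest of the group, with -0.61 in the authors' deposited table, and 358 of the named genes were lower. This is 0.656 of the control level, or 0.545 if the authors' deposited table holds natural logarithms. BARD1, which pairs with BRCA1 through their RING domains, had a value of 0.44 in the authors' deposited table, and 838 genes were higher. The gap within this pair was 1.05 in the authors' deposited table. PALB2, which bridges BRCA1 and BRCA2, was at 0.0040 and BRCA2, which loads the recombinase, at -0.10 in the authors' deposited table. Each of these 4 genes rests on 1 record, so no spread can be given for any of them.

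Genes of strand exchange were mostly near 0. RAD51AP1, which stimulates strand invasion, stood at -0.43 in the authors' deposited table, and RAD54L, a motor protein that drives strand invasion, at 0.25. The paralogs of the recombinase form complexes that stabilise its filament. Of them RAD51B was at -0.17 in the authors' deposited table, XRCC2 at -0.05, RAD51C at -0.03, XRCC3 at 0.03 and RAD51D at 0.10. RAD51B had 3 records, with -0.26, -0.20 and -0.04 in the authors' deposited table. Those of RAD51C lay on both sides of 0 in the authors' deposited table, at -0.15 and 0.09. RAD54B, a relative of RAD54L, was at -0.11 and RAD52, an annealing protein, at 0.04 in the authors' deposited table.

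In end resection only NBN of 5 genes stood beyond 0.2, where 25.2% of all named genes did. NBN, the subunit that links the MRE11 nuclease complex to the kinase ATM, was at -0.36 in the authors' deposited table, from records of -0.52 and -0.19. Its complex partners RAD50 and MRE11 had -0.01 and -0.09 in the authors' deposited table. For MRE11, the nuclease, the authors' deposited table held records of opposite sign, -0.25 and 0.06. RBBP8, known as CtIP, which activates that nuclease, had a mean of -0.0040 in the authors' deposited table from records of -0.17, -0.06 and 0.23. The last of these is in the authors' class above 0.2, so the mean hides records on both sides. EXO1, the exonuclease of long-range resection, was at -0.03 in the authors' deposited table, from -0.13 and 0.08.

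The dissolution factors of 1 complex also stood apart. RMI1, a scaffold of the complex that BLM forms with a topoisomerase, had a value of -0.58 in the authors' deposited table, and 413 genes were lower. BLM, its helicase, had 0.42 in the authors' deposited table, where 942 genes were higher, and RMI2, its smaller scaffold subunit, had 0.22. The gap between RMI1 and BLM was 1.00, and that between RMI1 and RMI2 0.80, in the authors' deposited table. Apart from BRCA1 and BARD1, the other pairs compared had smaller gaps, from 0.13 (MUS81 and EME1) to 0.67 (TOPBP1 and ATRIP). RMI1, BLM and RMI2 each rest on 1 record. TOP3A, the topoisomerase of the complex, is no member and was looked up after these values were seen: it was at -0.0084 in the authors' deposited table. WRN, a helicase of the same family as BLM, was at -0.10 in the authors' deposited table.

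Checkpoint genes had 3 of 6 members below -0.2 and 1 above 0.2, where 12.1% and 13.1% of all named genes stood. TOPBP1, CHEK1, ATM and ATRIP, which lie beyond 0.2, each rest on 1 record. TOPBP1, which activates the kinase ATR at stalled forks, stood at -0.41 in the authors' deposited table. CHEK1, the kinase that ATR activates, stood at -0.29 and ATM, the kinase that responds to broken ends, at -0.22 in the authors' deposited table. ATRIP, the obligate partner of ATR, stood at 0.27 in the authors' deposited table, whereas ATR itself was at -0.0067. CHEK2, the kinase downstream of ATM, was at 0.0087 in the authors' deposited table, from -0.01 and 0.03. The value of ATM lies close to the bound of -0.2 that sets these counts.

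The Fanconi core genes lay within 0.2 of 0 except for FANCG. FANCG, an adaptor within the core, stood at -0.34 in the authors' deposited table. The other core genes lay from FANCB at -0.17 to FANCF at 0.13 in the authors' deposited table, with FANCL, the ubiquitin ligase subunit, at -0.10 and FANCE at -0.03. FANCC was at 0.07, FANCM, the DNA translocase that anchors the core, at 0.08 and FANCA at 0.10 in the authors' deposited table. UBE2T, the ubiquitin-conjugating enzyme that works with FANCL, had 0.18 in the authors' deposited table. FANCB had records of -0.22 and -0.13 in the authors' deposited table, and FANCA had 0.03 and 0.17.

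By their gene means, the substrates and nucleases downstream of the core stood below 0, apart from SLX4. FANCI and FANCD2 are ubiquitinated together by the core complex and clamp onto DNA as a pair. FANCI stood at -0.40 in the authors' deposited table and FANCD2 at -0.08, from records of -0.20 and 0.04. BRIP1, a helicase that binds BRCA1, was at -0.05 by the authors' deposited table. In the authors' deposited table the nuclease gene MUS81 stood at -0.27 and its partner EME1 at -0.15. SLX4, the scaffold on which such nucleases assemble, was at 0.03 in the authors' deposited table.

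Records were counted as well as genes. The 43 members had 55 records in the authors' deposited table, and 6 of them were in the authors' class above 0.2, where 13.2% of all records with a symbol were. Of the 10 members with several records, 6 had records on both sides of 0 in the authors' deposited table, which were CHEK2, EXO1, FANCD2, MRE11, RAD51C and RBBP8. Within a member, records differed with a pooled SD of 0.16. The SD is of the same order as the bound of 0.2.

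Further genes of the same pathways were spread in both directions. Of 67 such genes 64 were measured, and 17 (26.6%) stood below -0.2 and 11 (17.2%) above 0.2 by the authors' deposited table, with a median of -0.02. The lowest in the authors' deposited table were RECQL, a helicase, at -0.77, RPA2, a subunit of the single-strand binding complex, at -0.76 and DCLRE1A, a crosslink repair nuclease, at -0.73. The highest in the authors' deposited table were SWI5, a recombination accessory factor, at 0.91, BAP1, a deubiquitinase that binds BRCA1, at 0.74 and NSMCE1, a subunit of the SMC5/6 complex, at 0.70. RECQL had records of -0.98 and -0.56 in the authors' deposited table.

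Replication and mitotic genes are other lists of cell cycle genes and are set beside the members. Of 46 DNA replication genes, 25 (54.3%) stood below -0.2 and 7 (15.2%) above 0.2 by the authors' deposited table, with a median of -0.24. Of 35 mitotic genes, 15 (42.9%) stood below -0.2 and 6 (17.1%) above 0.2 by the authors' deposited table, with a median of -0.10. For the 43 members the same shares were 23.3% and 11.6%, and the median was -0.03. These lists were not tested against each other, and the part of cell cycle phase in the members' values was not tested. The lowest replication genes in the authors' deposited table were PRIM1, a primase subunit, at -1.04, MCM6, a subunit of the replicative helicase, at -0.87 and GINS2 at -0.74, while MCM5 stood at 0.71, POLD2 at 0.62 and TK1 at 0.62. Among 29 regulators of the E2F and RB network, 8 stood below -0.2 and 5 above 0.2 by the authors' deposited table. They were led by CDKN1B, a cell cycle inhibitor, at -0.61, E2F4 at -0.56 and E2F3 at -0.45, with E2F6 at 0.49, FOXM1 at 0.45 and E2F8 at 0.36 in the authors' deposited table.

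**Figure D4:**
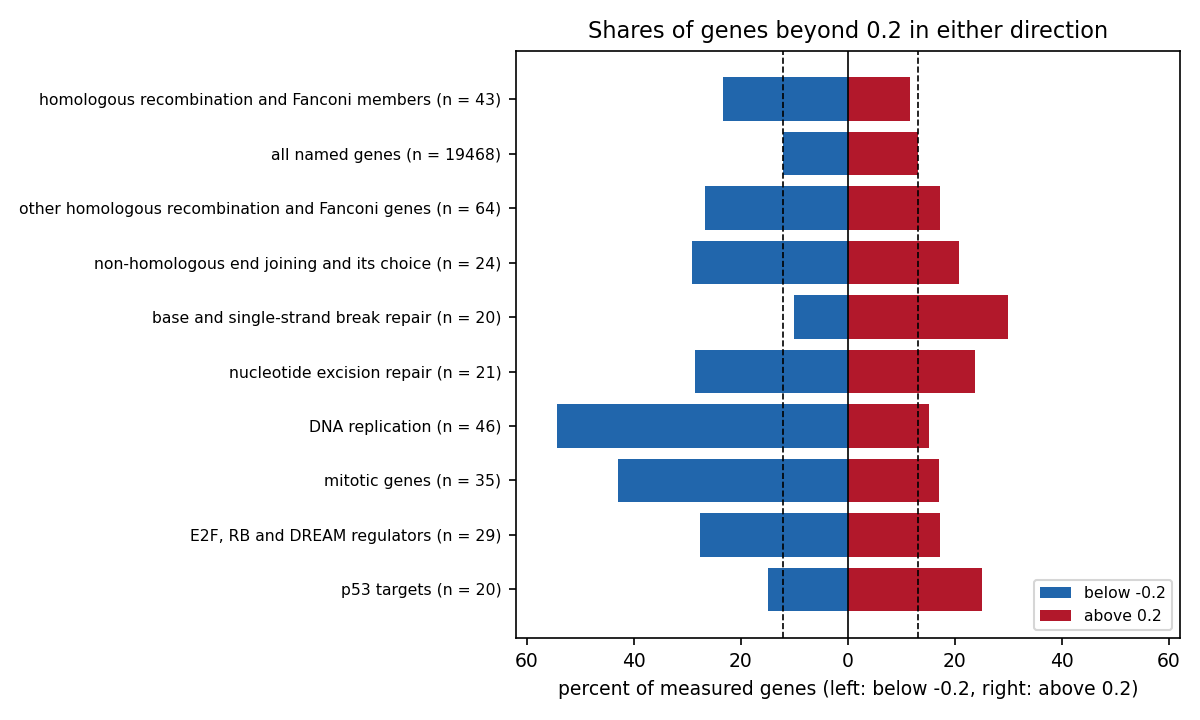
Percent of measured genes below -0.2 (left bars) and above 0.2 (right bars) in the authors' deposited table for the 43 members, all 19468 named genes (dashed lines) and each other list, with the number measured in brackets. Members reach 23.3% on the left and 11.6% on the right, and the DNA replication list reaches 54.3% on the left.

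Of 4 lists of cell identity markers, 3 held a gene beyond 0.2 by log fold change. Of all named genes of the authors' deposited table, 25.2% lay beyond 0.2. None of 8 fibroblast and endothelial markers lay beyond 0.2 in the authors' deposited table, and they ran from -0.12 to 0.13. Of 8 leukocyte markers only CD14 did, at 0.59 in the authors' deposited table, while PTPRC was at 0.0057. Of 8 luminal markers KRT8 stood at 1.05 and FOXA1 at -0.41 in the authors' deposited table. Of 7 markers of mesenchymal breast lines, MSN stood at -0.74, AXL at -0.52 and CAV1 at -0.27 in the authors' deposited table, and none stood above 0.2. These are differences and not levels, and their part in the members' values was not tested.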

How the data were processed

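Expression in 4 samples (2 TARBP2 siRNA, 2 control siRNA) was measured on Illumina BeadChips. The authors deposited a table of log fold changes per accession, treated as log2 here because the file header states no base, with a class that the header gives as 0 or 1. The highest value of class 0 was 0.199963 and the lowest of class 1 was 0.200012. The deposited probe intensity values were not normalized, per the file headers, and each has a deposited detection score, used as 1 minus the detection p-value. A separate deposited table of intensity values has equal quantiles in all columns, so the authors' values were quantile-normalized. The submitters' processing notes name lumi, with settings not given in the sources used here. Probes carry no gene names in these tables, so the planned test of the members' probes was not run.

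Accessions were matched without versions to RefSeq's gene table of GRCh38.p14, which named 22411 of 39745 (56.4%), and averaged per symbol with pandas 2.3.3. Probe intensities were normalized with neqc (offset 16) in limma 3.58.1, R 4.3.3, kept if detected at p under 0.05 on 2 arrays or more, and compared with lmFit and eBayes (trend, two-sided, Benjamini-Hochberg at 0.05), a script checked on simulated data. The number of arrays limits the precision, and p-values measure only the spread between these samples. Detected probes of 47321 were 21639 and 20958 on the knockdown arrays, more than the 20393 and 19411 on the control arrays. All members may be named. Of each other list, at most the 3 genes farthest from 0 in each direction are named, beside markers and TOP3A. The members, lists and motifs were chosen with earlier results of these data known. Mismatch repair genes are not reported here.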

Additional observations from a re-analysis of the deposited data

How the results depend on the processing

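The counts of 10 members below -0.2 and 5 above 0.2 by the authors' deposited table were taken again under other summaries of records. These were the median, the record farthest from 0, the record nearest to 0 and curated accessions only. The counts stayed within 1.5 times, with 9 to 13 below and 5 to 6 above in the authors' deposited table. The shares of all named genes ran from 11.4% to 13.2% below and from 12.4% to 14.4% above. These summaries had little room to differ, because 33 of the 43 members have 1 record. The median can differ from the mean only for the 2 members with 3 records. Curated accessions only gave the same 19468 genes and the same shares as the main summary, so it was no separate check. Read as natural logarithms the counts were 13 and 6, beside 16.1% and 17.9% of all named genes. With a bound of 0.1 in place of 0.2 the counts were 16 below and 8 above, beside 20.2% and 22.3% of all named genes. With 0.3 they were 7 below and 2 above, beside 7.91% and 8.32%. The median of the members in the authors' deposited table ranged from -0.05 to -0.01 over the summaries of records. Taken by its record nearest to 0, NBN was at -0.19 in the authors' deposited table, inside the bound. Each other member beyond 0.2 has 1 record, so no summary of records could change its value. The count of probes past the limma test was 0 under each other normalization, filter and eBayes setting tried and with the replicate number as a block, and from 0 to 12035 with 1 array left out. Same-numbered arrays share only a number (correlation of deviations -0.042). Leaving out arrays could not be applied to the authors' deposited table, and no alternative was run for the members' probes.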

Other observations

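Other routes of DNA repair were spread differently from each other in the authors' deposited table, without a test between them. Of all named genes there, 12.1% stood below -0.2 and 13.1% above 0.2. Base excision and single-strand break repair had 6 of 20 genes above 0.2 and 2 below -0.2 by the authors' deposited table. PARP3 stood at 0.65, the glycosylase gene NTHL1 at 0.54 and the ligase gene LIG1 at 0.48 in the authors' deposited table, against SMUG1 at -0.31 and NEIL3 at -0.27.

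End joining genes, the rivals of recombination at broken ends, had 7 of 24 measured genes below -0.2 and 5 above 0.2 by the authors' deposited table. APTX stood at -0.88, MDC1, the scaffold that reads phosphorylated H2AX, at -0.74 and TDP2 at -0.65 in the authors' deposited table, with PAXX, a core end joining factor, at 0.65. Nucleotide excision repair had 6 of 21 genes below -0.2 and 5 above 0.2 by the authors' deposited table, with RAD23B at -0.68 against its partner XPC, the damage sensor, at 0.57. Of 20 p53 targets, 3 stood below -0.2 and 5 above 0.2 by the authors' deposited table, with GADD45A at -0.46 and CDKN1A at 0.26. CDKN1A had records of 0.0054 and 0.52 in the authors' deposited table.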
